A study of Mus musculus with 8 samples.

Results

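The genes examined here were the 5 intermediate filament genes that build the neuronal cytoskeleton, Nefl, Nefm, Nefh, Ina and Prph, taken by name from a table of 22430 genes. All 5 were in the table, and all 5 passed the filter of a mean count over 5. The libraries came from whole brain hemispheres of male C57Bl/6JRj mice, 4 young adults (6m, 6 months old) and 4 aged mice (24m, 24 months old), with 1 library per mouse. Polyadenylated RNA was read as long reads on Oxford Nanopore Technology (ONT) flow cells. The study's methods describe direct sequencing of RNA for these libraries, while the sample labels name a directional cDNA kit. The question was which mRNAs differed between aged and young adult brain.

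Neurofilaments are the main intermediate filaments of mature neurons and fill large myelinated axons, where their number and spacing set axon calibre. The light chain, encoded by Nefl, forms the core of the polymer, and the medium and heavy chains, encoded by Nefm and Nefh, add long tails that are phosphorylated and project from the filament. Alpha-internexin, encoded by Ina, appears early in neuronal differentiation and stays as a further subunit of central nervous system filaments. Peripherin, encoded by Prph, belongs mainly to peripheral neurons and to brainstem and spinal neurons that send axons to the periphery.

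On the GRCm39 build with the GENCODE vM39 annotation, Nefl (ENSMUSG00000022055) lies at chr14:68321268-68326544 on the plus strand and its neighbour Nefm (ENSMUSG00000022054) at chr14:68320039-68362305 on the minus strand. Nefh (ENSMUSG00000020396) lies at chr11:4888740-4898130 on the minus strand. Ina (ENSMUSG00000034336) lies at chr19:47003069-47013770 and Prph (ENSMUSG00000023484) at chr15:98952872-98956862, both on the plus strand. The canonical transcripts of Nefl, Nefm, Nefh and Ina are of similar length, at 3424, 3344, 4074 and 3261 bases, and that of Prph is shorter, at 1947 bases.

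Reads of near-identical genes could be split in counting, so the members were compared with each other and with all annotated transcripts. Over their longest aligned stretches the canonical transcripts of the members were 67.1% to 69.7% identical, and none of the 5 has a near-identical copy among the annotated transcripts. Exons of neighbouring genes on the opposite strand do overlap some members. An alternative Nefm transcript, 1 of 6, shares 1152 bases with Nefl, which is 33.6% of Nefl. The canonical Nefm transcript shares no base with Nefl but 1117 bases, 33.4% of its length, with the noncoding A230070E04Rik. That gene had no row among the counted genes. Ap1b1 covers 21.1% of Nefh and Nt5c2 covers 16.1% of Ina, while Prph overlaps no other gene. Whether the counting used strand, and how it treated reads over shared bases, is not given in the sources used here. The counts of Nefl, Nefm, Nefh and Ina may therefore hold reads of these partners or lack reads of their own. Ap1b1 and Nt5c2 had log2FC of 0.03 and 0.23 between the ages (adjusted p = 0.902 and 0.337, edgeR), so neither passed the test.

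The libraries held from 573152 to 1255424 counts, and 1 count was worth from 0.767 to 1.81 CPM, the counts per 1000000 after scaling by the trimmed mean of M values (TMM). The 5 genes together took from 0.0447% to 0.0752% of a library's counts. All libraries of an age differed from each other by more than sampling noise, since chi-square divided by its degrees of freedom was 1.18 or more in every pair. The young adult replicate 2 was the shallowest library, and the aged replicate 1 stood apart on the second principal component, at 38.4 against −17.5 to 7.48 in the other 7 libraries. Summed neuron markers ran from 4721 to 5048 CPM in young adult and from 5083 to 5653 CPM in aged libraries. Where the ages differ in bulk tissue, a change in the number of cells cannot be told apart from a change in RNA per cell.

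Of the 5 genes, 2 changed between the ages by the rule used throughout, a log2FC of 0.58 or more in either direction with an adjusted p no higher than 0.05 (edgeR's quasi-likelihood test, Benjamini-Hochberg over 9375 genes). Ina rose and Prph fell. By the same rule 10.3% of all tested genes were higher and 4.17% were lower in aged brain, 14.5% in either direction, and the median log2FC of all tested genes was −0.0034. Of the genes that changed, 71.2% were higher, against 84.5% with library sizes alone and 59.2% with limma-voom on quantile-normalized values. The libraries of the ages did not overlap for 1 of the 5 genes, Ina, and for 21.1% of all tested genes.

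**Figure D1:**
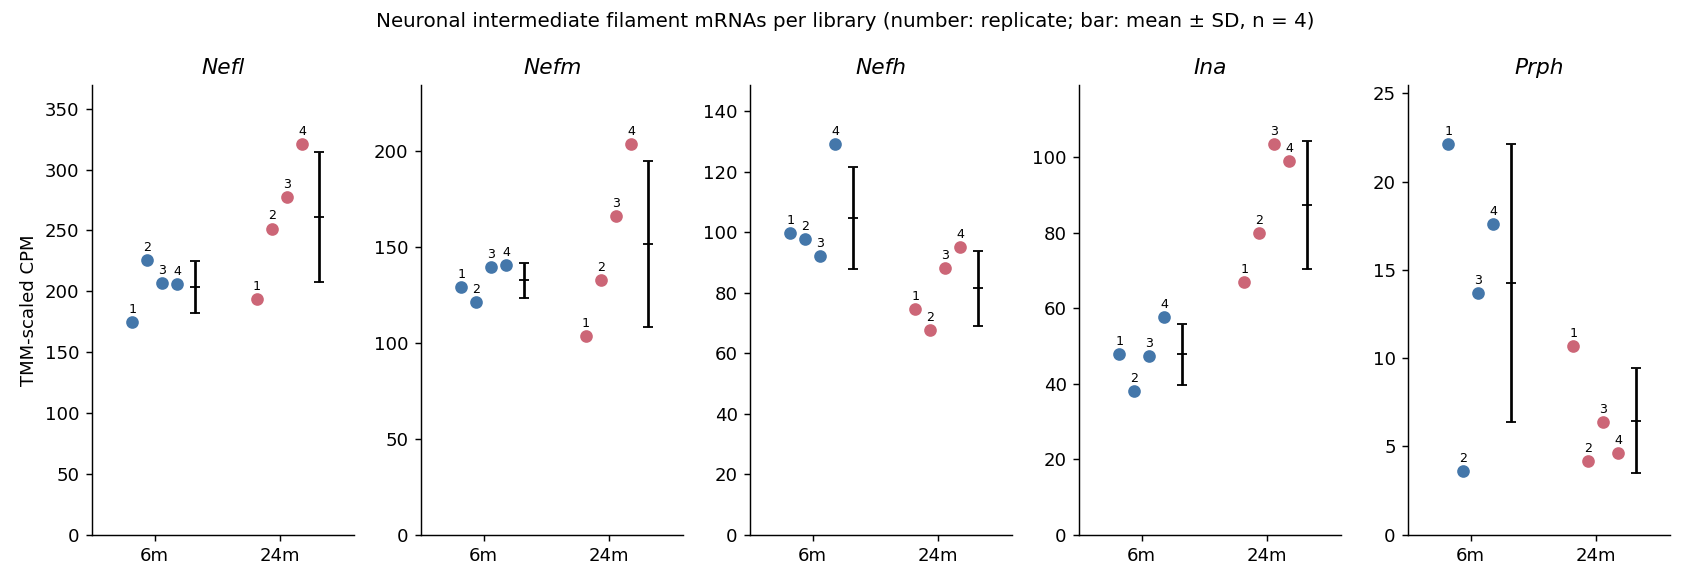
TMM-scaled CPM of each gene in the 4 young adult (6m, blue) and 4 aged (24m, red) libraries, each point 1 mouse with its replicate number, and bars the mean ± SD. Each panel has its own scale from 0. For Ina the 4 aged libraries sit between 67.1 and 104 CPM, above all 4 young adult libraries.

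Ina, the internexin gene, was the member with the smallest p. In the young adult libraries 1 to 4 it stood at 48.0, 38.0, 47.3 and 57.8 CPM, and in the aged libraries 1 to 4 at 67.1, 80.1, 104 and 98.9 CPM. Every aged library was above every young adult library. The means were 47.8 ± 8.09 and 87.4 ± 17.0 CPM (SD, n = 4 each), a 1.83-fold rise with a 95% interval from 1.43 to 2.33. Its log2FC was 0.87 ± 0.17 (SE, adjusted p = 0.000789, edgeR), above that of 91.2% of all tested genes. The rise did not rest on 1 library, since leaving out each in turn gave log2FC from 0.80 to 0.98 and kept the call.

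Nefl, the light chain gene and the most abundant member, was read 597 times in young adult and 1005 times in aged libraries. Its level was 175, 226, 207 and 206 CPM in the young adult libraries 1 to 4, and 194, 252, 278 and 321 CPM in the aged libraries 1 to 4. The aged replicates 2, 3 and 4 lay above all young adult libraries, and the aged replicate 1 lay among them. The means were 203 ± 21.2 and 261 ± 53.4 CPM (SD, n = 4 each), with a log2FC of 0.38 ± 0.13 (SE, adjusted p = 0.0336, edgeR). Nefl therefore met the adjusted p in edgeR, as 21.7% of all tested genes did, but not the minimum fold. It missed the adjusted p with DESeq2 (adjusted p = 0.0680) and on leaving out any 1 of 6 libraries, the young adult replicates 1, 3 and 4 and the aged replicates 2, 3 and 4, where the adjusted p of edgeR ran from 0.0627 to 0.133. Without the aged replicate 1 its log2FC was 0.50, still under the minimum fold.

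Nefm, which encodes the medium chain and lies beside Nefl on chromosome 14, stood at 129, 121, 139 and 141 CPM in the young adult libraries 1 to 4. In the aged libraries 1 to 4 it stood at 104, 133, 166 and 204 CPM. The aged libraries ran both below and above the young adult ones, and their SD was 43.2 CPM around a mean of 152 CPM, against 9.19 CPM around 133 CPM. The log2FC was 0.21 ± 0.15 (SE, adjusted p = 0.346, edgeR), with a 95% interval from −0.10 to 0.53. Leaving out 1 library moved it both ways. Without the aged replicate 1 the log2FC of Nefm was 0.36 (adjusted p = 0.0397, edgeR), below the minimum fold. Without the aged replicate 4 it was 0.04 (adjusted p = 0.879, edgeR).

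Nefh, the heavy chain gene, was the neurofilament gene whose mean was lower in aged brain. It stood at 99.7, 97.6, 92.1 and 129 CPM in the young adult libraries 1 to 4, and at 74.7, 67.6, 88.3 and 95.1 CPM in the aged libraries 1 to 4. Aged replicates 1, 2 and 3 were below all young adult libraries, and aged replicate 4 lay among them. The means were 105 ± 16.7 and 81.4 ± 12.5 CPM (SD, n = 4 each), and the log2FC was −0.36 ± 0.15 (SE, adjusted p = 0.0987, edgeR). Nefh did not pass the test, and its 95% interval ran from −0.67 to −0.04.

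Prph, the peripherin gene, was close to the limit of detection. It was counted 18, 2, 11 and 14 times in the young adult libraries 1 to 4, and 7, 4, 5 and 6 times in the aged libraries 1 to 4. Replicates 1, 3 and 4 of the young adults were above all aged libraries, while replicate 2 was below all of them. The means were 14.3 ± 7.89 and 6.46 ± 2.97 CPM (SD, n = 4 each), with a log2FC of −1.29 ± 0.43 (SE, adjusted p = 0.0325, edgeR). The 95% interval of the log2FC ran from −2.17 to −0.41. This call was lost with DESeq2 (log2FC −1.25, adjusted p = 0.0928) and on leaving out any 1 of 6 libraries, the young adult replicates 1, 3 and 4 and the aged replicates 2, 3 and 4, where the log2FC ran from −1.33 to −1.01.

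Counting error alone would give Prph a coefficient of variation of 29.8% in young adult libraries, and 55.4% was observed. For Nefm in aged libraries the observed coefficient was 28.5% against 8.22% from counting, and for Nefl it was 20.5% against 6.31%. In young adult libraries Nefm varied by 6.93%, below the 10.1% that counting alone would give. These figures cover counting error only.

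Summed over the 5 genes, the level was 503 ± 34.0 CPM in young adult and 588 ± 120 CPM in aged libraries (SD, n = 4 each), and the libraries overlapped. The make-up of that sum differed between the ages. Nefh supplied 20.8% ± 2.10 of the members' counts in young adult and 14.0% ± 1.79 in aged libraries, while Ina supplied 9.47% ± 1.19 and 14.9% ± 1.01 (SD, n = 4 each). Nefl supplied 40.5% ± 4.45 and 44.4% ± 1.77, Nefm 26.4% ± 1.43 and 25.5% ± 2.15, and Prph 2.84% ± 1.62 and 1.19% ± 0.80 (SD, n = 4 each).

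**Figure D2:**
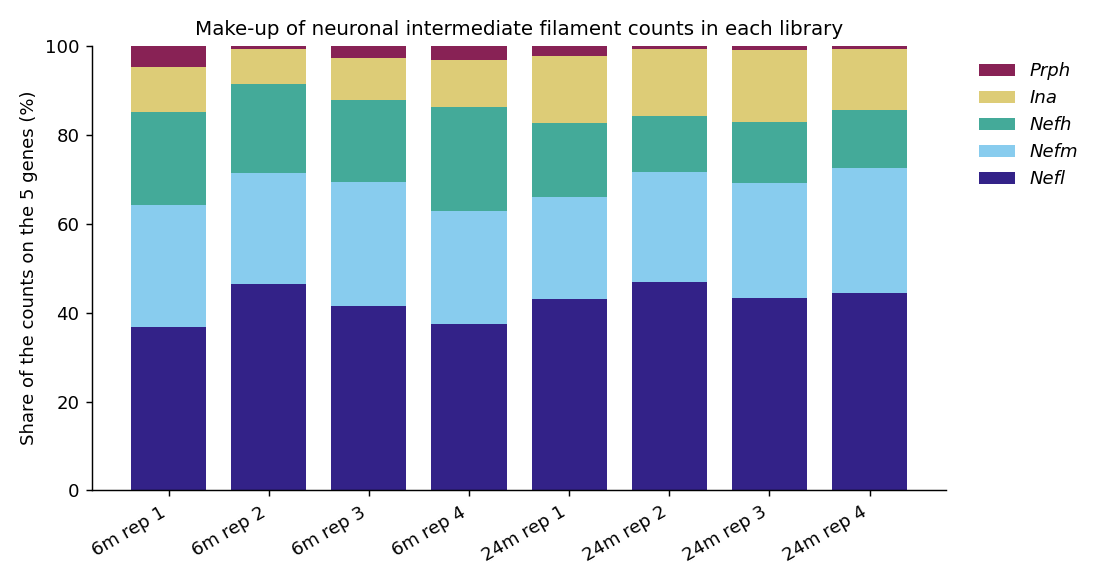
Share of the counts on the 5 genes (%) that each gene supplied, 1 stacked bar per library, with replicates numbered as in the labels. Ina takes 7.81% to 10.5% of the bar in young adult and 13.7% to 16.1% in aged libraries, and Nefh takes 18.5% to 23.5% and 12.6% to 16.6%.

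Per kilobase of canonical transcript, the order of the members in young adult brain was Nefl, Nefm, Nefh, Ina and Prph, at 59.4, 39.7, 25.7, 14.6 and 7.32 CPM per kilobase. In aged brain Ina and Nefh changed places, with Nefl at 76.2, Nefm at 45.4, Ina at 26.8, Nefh at 20.0 and Prph at 3.32 CPM per kilobase. Nefh was above Ina in 4 of 4 young adult libraries and Ina above Nefh in 4 of 4 aged libraries on this scale. Without the division by length, Nefh was above Ina in the aged replicate 1, at 74.7 against 67.1 CPM. Whether the counts of these long reads grow with transcript length was not tested. Their ranges over the aged libraries overlapped, at 20.6 to 31.8 for Ina and 16.6 to 23.3 CPM per kilobase for Nefh. The other neighbours kept their order in all 8 libraries.

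Ratios of members within a library need no scaling between libraries, and all 6 pairs among Nefl, Nefm, Nefh and Ina were compared by a two-sided exact permutation test, whose smallest possible p is 0.0286 with 4 libraries against 4. Prph was left out because it had 10 counts or fewer in some libraries. The ratio of Nefh to Ina was 2.06, 2.53, 1.94 and 2.23 in the young adult libraries 1 to 4, and 1.11, 0.845, 0.853 and 0.961 in the aged libraries 1 to 4. Every aged library was below every young adult library. The geometric mean fell from 2.18 to 0.937, a log2 difference of −1.22 (exact p = 0.0286, 0.0429 adjusted over the 6 pairs).

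The light chain rose relative to the heavy chain. The ratio of Nefl to Nefh went from 1.94 to 3.17, with a log2 difference of 0.70 (exact p = 0.0286, adjusted 0.0429) and no overlap of the libraries. Relative to Ina, both Nefl and Nefm fell. Nefl to Ina went from 4.24 to 2.97 and Nefm to Ina from 2.77 to 1.70, with log2 differences of −0.51 and −0.70 (exact p = 0.0286, adjusted 0.0429 for each).

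The ratio of Nefm to Nefh did not pass the test, at 1.27 and 1.82 with overlapping libraries (log2 difference 0.51, exact p = 0.0571, adjusted 0.0686). Leaving out the aged replicate 1 moved it to 0.64 and past the threshold (exact p = 0.0286, adjusted 0.0429). Nefl to Nefm was 1.53 in young adult and 1.74 in aged libraries, a log2 difference of 0.19 (exact p = 0.143, adjusted 0.143). The ratios that passed share their members, so the 6 tests are not independent of each other. Their adjusted p of 0.0429 was possible only because several pairs had the smallest exact p together.

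**Figure D3:**
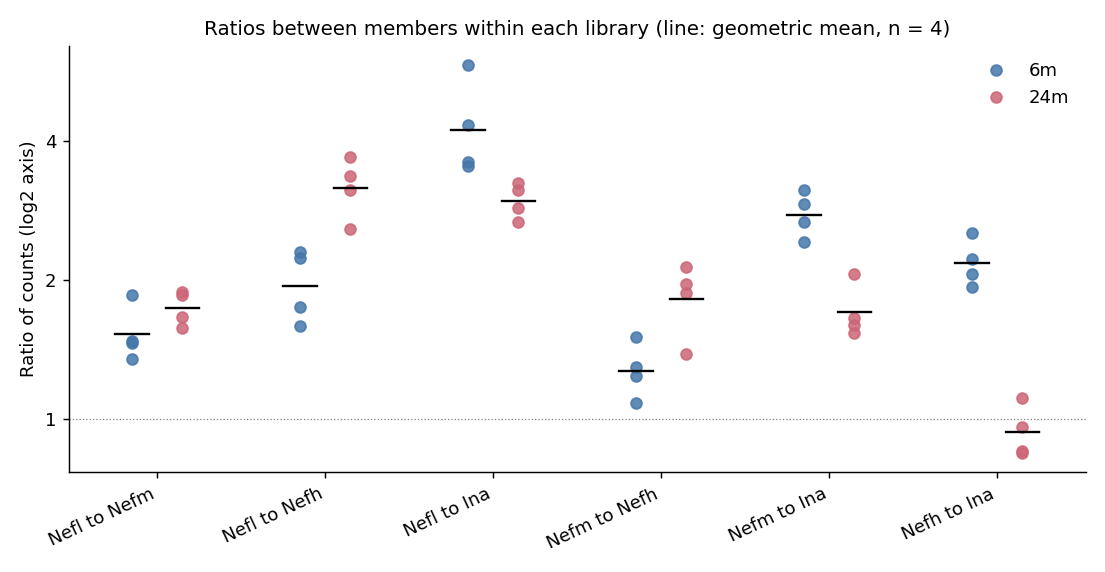
Ratio of the counts of 2 members within each library, on a log2 axis, for young adult (6m, blue) and aged (24m, red) libraries, with the geometric mean as a line and the ratio 1 dotted. The ages do not overlap for Nefl to Nefh, Nefl to Ina, Nefm to Ina and Nefh to Ina, and the ratio of Nefh to Ina falls from 2.18 to 0.937.

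To compare them with neuronal mRNA in general, each of these 4 genes was also set against the summed counts of 11 neuron markers in the same library. Nefh stood at a geometric mean of 21.4 counts per 1000 marker counts in young adult and 15.3 in aged libraries, and Ina at 9.83 and 16.4. Neither gene's libraries overlapped between the ages, and the log2 differences were −0.48 for Nefh and 0.74 for Ina (exact p = 0.0286 each). Adjusted over the 4 genes both p-values were 0.0571 and missed the threshold. Both exact p-values were the smallest possible, so they could pass after adjustment only if Nefl or Nefm reached that value too. The same exact p passed among the pairs of members, where more of the tests reached it. Nefl and Nefm overlapped, with log2 differences of 0.22 and 0.03 (exact p = 0.314 and 0.857).

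The fold changes of all tested genes differed with transcript length, with a median log2FC of −0.13 below 2000 bases and −0.03 above 6000 bases. Above 6000 bases 10.1% of genes were called higher and 10.2% lower, and below 2000 bases 4.00% and 3.29%. Tested genes within 10% of the canonical length of Ina had a median log2FC of 0.10, and 87.5% of them had a lower log2FC than Ina. Those within 10% of the length of Nefh had a median of 0.09, and 16.7% of them had a lower log2FC than Nefh. Those within 10% of the length of Prph had a median of −0.05, and 0.369% of them lay below Prph. The part of length in these results, and in those of the gene lists below, was not tested.

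The genes whose profiles over the 8 libraries were most like each member were ranked by the root mean square difference of centred log2 CPM among 2716 genes with over 50 counts on average. Nearest to Ina were Hacd3 and Git1, at 0.12 and 0.13. Nearest to Nefl were H3f3b, Ghitm and Rtn1, at 0.09, 0.10 and 0.10, and nearest to Nefm were Rcn2, Set and Lsamp, at 0.05, 0.11 and 0.12. Nearest to Nefh were Fkbp2, Fsd1 and Ndufa1, at 0.10, 0.10 and 0.11. The members themselves were not candidates.

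Among other intermediate filament genes, 4 of 7 were tested and 1 changed, beside 14.5% of all tested genes. Gfap, the astrocyte filament, rose with a log2FC of 1.94, the young adult mean being 61.5 ± 14.8 CPM and the aged mean 237 ± 47.6 CPM (SD, n = 4 each). Vim, the filament of glial and vascular cells, had a log2FC of 0.42 (adjusted p = 0.0521, edgeR), and the lamin gene Lmna −0.30 (adjusted p = 0.177). The median log2FC of the 4 was 0.55.

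Filaments travel along axons on microtubule motors and are tied to other cytoskeletal elements by linker proteins. Of 17 such genes tested, 1 rose and 4 fell, with a median log2FC of −0.24. By the same rule 10.3% of all tested genes rose and 4.17% fell. Kif5a, the neuronal kinesin heavy chain linked to neurofilament transport, rose with a log2FC of 1.29, and the means of the ages were 45.5 ± 18.8 and 111 ± 39.1 CPM (SD, n = 4 each). The related Kif5b fell with a log2FC of −1.21, with means of 24.3 ± 9.44 and 10.6 ± 3.33 CPM. Dync1h1, the dynein heavy chain, and Macf1, a giant linker of actin and microtubules, fell with log2FC of −0.66 and −0.88. The remaining gene, Myo5a, which encodes a myosin that binds neurofilaments, had a log2FC of −0.82. It is named outside the rule for named genes, after its values were seen. For Kif5a, Kif5b and Myo5a the libraries of the ages overlapped, and Kif5b had 40 counts over all aged libraries together.

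The tails of the medium and heavy chains are phosphorylated. Of 14 tested kinase and phosphatase genes 4 rose and 1 fell, beside 10.3% and 4.17% of all tested genes, with a median log2FC of 0.19. Cdk5r1, the p35 activator of Cdk5, rose with a log2FC of 2.04, between means of 9.27 ± 1.72 and 39.2 ± 14.1 CPM (SD, n = 4 each). Prkacb, a catalytic subunit of protein kinase A, rose with a log2FC of 1.26. Cdk5r2, which encodes the p39 activator of Cdk5, rose with a log2FC of 0.63 and is likewise named after its values were seen. Gsk3b fell with a log2FC of −2.31, between means of 22.1 ± 5.10 and 5.11 ± 3.99 CPM (SD, n = 4 each). Some of these changes rest on few reads. Gsk3b had 16 counts over all aged libraries together, and Cdk5r1 and Prkacb had 28 and 37 over all young adult ones. Cdk5 itself had a log2FC of −0.28 (adjusted p = 0.0743, edgeR).

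Of 10 tested genes for filament turnover and for binding of neurofilament mRNA, 1 fell and none rose by edgeR, with a median log2FC of −0.0019. The gene that fell was Tardbp, an RNA-binding protein reported to bind the Nefl mRNA, with a log2FC of −0.73 between means of 83.3 ± 9.20 and 50.1 ± 3.96 CPM (SD, n = 4 each). Of 12 tested genes of large-calibre axons and their nodes, 2 rose and 3 fell, with a median log2FC of 0.16. Beside both lists, 10.3% of all tested genes rose and 4.17% fell. Kcnc1, a potassium channel of fast-firing neurons, and Cntn1, a contactin of the paranode, rose with log2FC of 0.67 and 0.69. The potassium channel Kcna1 and the sodium channels Scn1a and Scn8a fell with log2FC of −1.74, −1.41 and −1.40, from young adult means of 25.7, 23.3 and 12.4 CPM. These falls rest on few reads, with 28, 33 and 17 counts over all aged libraries together. Scn8a had a mean count of 6.75, below the 8.38 of Prph. For Kcna1 and Scn1a the libraries of the ages overlapped.

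**Figure D4:**
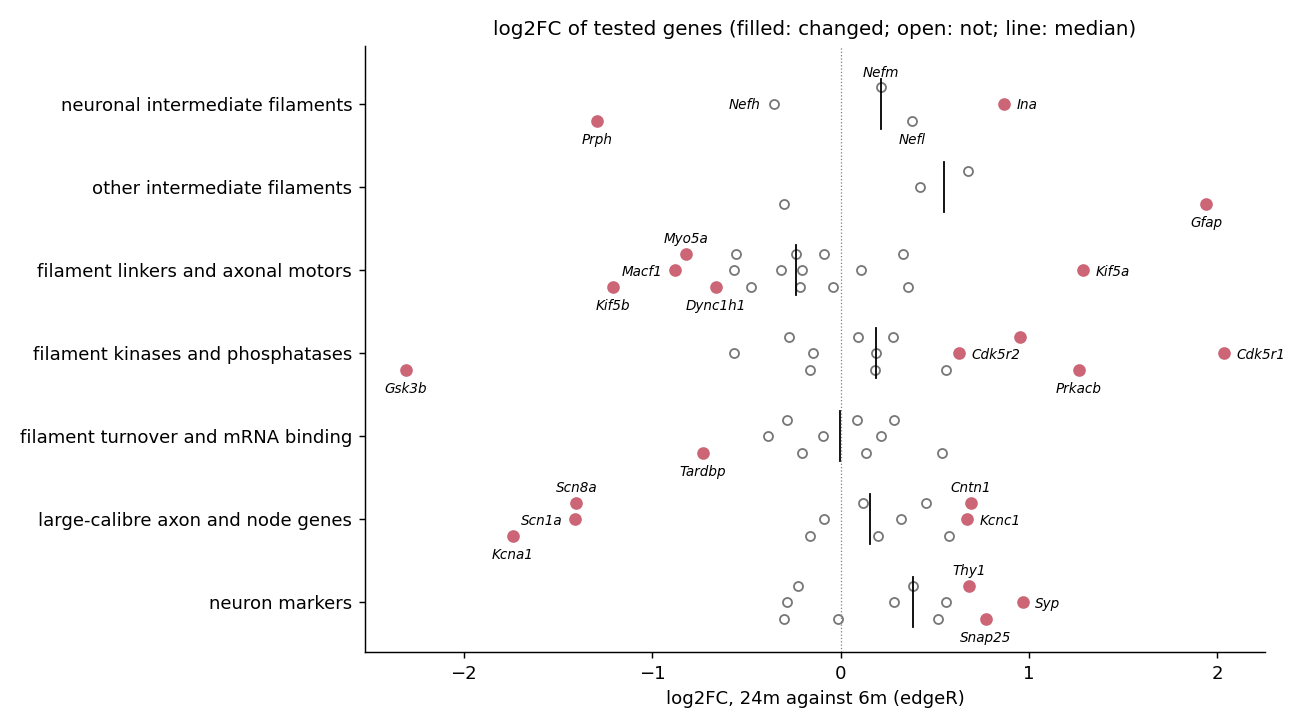
log2FC of 24m against 6m from edgeR for every tested gene of 7 lists, with genes that passed the adjusted p of 0.05 and the minimum log2FC of 0.58 filled and most of them named, other genes open and the list median as a line. The 5 neuronal intermediate filament genes run from −1.29 for Prph to 0.87 for Ina, and the 4 other intermediate filament genes tested reach 1.94 for Gfap.

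Marker lists were read for the cells and regions that a hemisphere could hold in unequal amounts. The shares over all tested genes, 10.3% higher and 4.17% lower, stand beside every list here and below. Of 11 neuron markers 3 rose, Thy1, Syp and Snap25, with log2FC of 0.68, 0.97 and 0.77, and none fell by the same rule. Stmn3 and Tubb3, the markers with the most counts, and Elavl3 had log2FC of −0.28, −0.30 and −0.23 (adjusted p = 0.0325, 0.0353 and 0.495, edgeR). The list's median log2FC was 0.38, beside 0.38 for Nefl and 0.87 for Ina. Of 10 oligodendrocyte markers 2 rose, among them Mbp with a log2FC of 0.72. The summed list ran from 2146 to 2697 CPM in young adult and from 2930 to 3807 CPM in aged libraries. Mbp made up much of this sum, with means of 1073 and 1770 CPM, and its libraries overlapped between the ages. Opalin and Mag had log2FC of −0.27 and −0.08 (adjusted p = 0.349 and 0.597, edgeR), and all other markers of the list had positive ones. Of 6 cerebellar markers 3 rose, Car8, Cbln3 and Cbln1, with summed levels of 470 to 858 and 689 to 991 CPM. Cbln3 had 11 counts over all young adult libraries together, and Car8 and Cbln1 overlapped between the ages. Of 4 tested genes on the list taken as forebrain glutamatergic markers, Slc17a7 and Tbr1 rose, and Tbr1 overlapped between the ages. That list had summed levels of 2233 to 2422 and 2405 to 3125 CPM. Whether its genes mark forebrain alone was not tested. The summed levels of both lists overlapped between the ages. Whether the markers that rose had a part in the rise of Ina was not tested.

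Astrocyte markers, of which 3 of 7 rose and 1 fell, summed to 2551 to 3034 and 2563 to 3298 CPM, and of 7 microglia markers 1 rose, with sums of 684 to 758 and 860 to 1091 CPM. For Prph the relevant markers are those of brainstem cholinergic and monoaminergic neurons and of peripheral nerve. Of 10 brainstem markers 3 were tested and none changed by edgeR, and the list summed to 77.5 to 94.6 CPM in young adult and 60.3 to 89.7 CPM in aged libraries. Those tested were Th, the enzyme that makes catecholamine precursors, Slc18a3 and Ddc. Their log2FC were −0.48, −0.21 and 0.17 (adjusted p = 0.104, 0.726 and 0.746, edgeR). None of the 7 peripheral nerve markers passed the filter, their sum ran from 5.42 to 13.8 CPM in young adult and from 4.60 to 10.7 CPM in aged libraries, and Pmp2 was at 0 in all 8 libraries, which allows up to 3 counts in each. Thalamic and hindbrain markers, of which 2 of 4 were tested and none changed, summed to 18.1 to 30.8 and 12.2 to 29.1 CPM. The part of the sampled regions in the fall of Prph was not tested.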

How the data were processed

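The members and the gene lists were chosen with earlier results of these data known. The deposited values are unnormalized counts of ONT reads by gene. The authors aligned the reads to GRCm39 (minimap2 2.24, per the submitters' processing notes). The counting tool's strand setting is not given in the sources used here. All 9375 genes with a mean count over 5 were fitted by edgeR 4.0.16 in R 4.3.3 (quasi-likelihood test, TMM, age as the only term, Benjamini-Hochberg), after tests on simulated data. DESeq2 1.42.0, limma 3.58.1 (voom, quantile normalization), other scalings and filters, a replicate block and leaving out each library were alternatives. Ratios had 0.5 added to each count and took all 70 labellings. Symbols matched for 22281 of 22430 genes, and lengths for 9349 of the tested ones. Named besides the members are, per list, up to 3 called genes with the smallest p in each direction, genes a result turns on, and the 3 genes nearest each member. Some items that this rule takes are not reported here. p-values measure the spread between mice.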

Additional observations from a re-analysis of the deposited data

Results flagged for a closer look

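The total count of the young adult replicate 2, 573152, lay far below those of the other 3 young adult libraries, which ran from 818963 to 843706. It was the 1 of 26 groups of 4 libraries examined in which 1 library stood this far from the rest, and chance gives about 1 in 20. Prph had 2 counts in that library. Without it the log2FC of Prph was −1.53 and that of Ina 0.80.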

How the results depend on the processing

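Nefl, Nefm, Nefh and Ina kept their direction under all 18 alternatives, of which 3 used DESeq2 or limma-voom, and by adjusted p and fold together Ina was called in all of them and the others in none. By adjusted p alone Nefl crossed the threshold with DESeq2 (0.0680), DESeq2 on quantile-normalized counts (0.0721) and without 1 of 6 libraries, and Nefm without the aged replicate 1 (0.0397). The log2FC ran on leaving out 1 library from 0.28 to 0.50, 0.04 to 0.36, −0.44 to −0.22 and 0.80 to 0.98 in that order. Prph lost its call with DESeq2 (−1.25), DESeq2 on quantile-normalized counts (−1.32) and library sizes alone (−1.19), and ran from −1.57 to −1.01 without 1 library. In these settings, and with more than 5 counts required in every library, where Prph was not tested, 1 member was called, and 1 to 2 without 1 library. Over all genes 1359 were called by edgeR, 834 by DESeq2 and 819 by DESeq2 on quantile-normalized counts, and library sizes alone moved the median log2FC to 0.10.

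No pairing by replicate number was seen, with correlations of same-numbered deviations from −0.16 to 0.065. Counting error in genes with few counts lowers such correlations, so this check cannot exclude pairing. With the replicate block edgeR called 1308 genes and the same 2 members. For the ratios the block gave log2 differences of 0.70 (Nefl to Nefh), −0.51 (Nefl to Ina), −0.70 (Nefm to Ina) and −1.22 (Nefh to Ina), each with an exact p of 0.125, the smallest that 4 pairs allow.

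On leaving out 1 library the log2 differences ran from 0.61 to 0.80 for Nefl to Nefh, −0.60 to −0.36 for Nefl to Ina, −0.80 to −0.64 for Nefm to Ina, −1.30 to −1.14 for Nefh to Ina, 0.43 to 0.64 for Nefm to Nefh and 0.13 to 0.29 for Nefl to Nefm. Adjusted exact p-values then often missed the threshold, at 0.0571 for Nefh to Ina and Nefm to Ina without 1 of 5 libraries, although their unadjusted exact p stayed at 0.0286, the smallest possible. Nefl to Ina reached an unadjusted exact p of 0.0857, and Nefl to Nefh one of 0.0571. Against neuron markers, Nefm turned to −0.078 with the geometric mean of 9 markers, and ran from −0.15 to 0.23 without 1 library, turning to −0.019 without the aged replicate 3 and −0.15 without the aged replicate 4. Nefl ran from 0.09 to 0.39, Nefh from −0.58 to −0.39 and Ina from 0.65 to 0.88. The summed level differed by 85.5 CPM, by 126 CPM with library sizes alone, and by 46.6 to 135 CPM without 1 library.

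Prph had the fewest counts of the members, at 2 to 18 per library. Fewer libraries lower the power of every leave-out test, and the cause of the lost calls, those of Prph included, was not tested.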
